A study of Mus musculus with 10 samples.

Results

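All 8 arrays of Ezh2-deleted blood progenitors were compared with both wild type arrays of the series, and the genes described are those whose 8 deleted arrays all lay above, or all lay below, both wild types. The comparison took in 10 of 10 arrays. Of 48997 features on the array (genes named through RefSeq accessions, and probes without a name), 22365 entered, and 709 of them (3.17%) had all 8 deleted arrays above both wild types and 611 (2.73%) had all 8 below. Among the 12881 named genes that entered, these were 562 genes (4.36%) and 378 genes (2.93%). Because these genes were picked by the measured values themselves, those values are given as a description, with no test of the choice. The share of features that would lie on one side with no difference between the genotypes was not computed.

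The cells were LSK cells (negative for mature lineage markers, positive for Sca-1 and c-Kit), a bone marrow fraction with blood stem cells and the first progenitors they form, and were sorted as CD45.2 cells, the donor type. Donor cells had a C57BL/6 background and carried either the tamoxifen-inducible Cre alone (Cre-Ert, called WT) or that Cre with both Ezh2 alleles floxed (Cre-Ert;Ezh2fl/fl, called KO), and all groups were transplanted and given tamoxifen. WT had 1 array labelled 3 months after transplantation and 1 labelled 9-12 months, both without disease. KO had 1 array labelled 3 months without disease and 7 labelled 9-12 months: 2 from mice with myelodysplastic syndrome (MDS 1 and 2), 3 with MDS combined with features of a myeloproliferative neoplasm (MDS/MPN 1, 2 and 3), 1 with undetermined disease and 1 mixed array whose label names several of these diseases. The labels do not state what drives the Cre, which exons are removed or how many mice stand behind the WT, 3-month and mixed arrays, and the mixed array may share mice with others. Genotype therefore cannot be told apart from disease in most of the KO arrays. The p-values measure only the spread between these samples, and mostly that between KO arrays.

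Ezh2 is the histone methyltransferase of Polycomb repressive complex 2 (PRC2), which places methyl groups on lysine 27 of histone H3, a mark of silenced chromatin. Eed and Suz12 are core subunits needed for its activity, and Ezh1 is a second methyltransferase that can take the place of Ezh2. In blood cells PRC2 keeps developmental and lineage genes silent, and its target promoters are often rich in CpG dinucleotides.

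A level below is the log2 intensity of a probe minus log2 of its array's 75th percentile, and a difference is KO minus WT of such levels, with ± as the standard error of the fit on 8 KO and 2 WT arrays with slide as a block. Slide 1 held both 3-month arrays and slide 2 the other 8. Array names follow the scanner files. In the deposited value table both WT arrays are exchanged with each other, and the mixed with the 3-month KO array. Which of these is right is not known. Each slide held 1 WT array, so the spread behind ± and p drew mostly on the 7 KO arrays of slide 2. It holds no repeated WT array within a slide. The 75th percentile was 78.7 to 301.7 intensity units, highest on MDS/MPN 2, and 32.5% to 47.5% of probes were well above background. The lowest signal so called was 8.8 and 9.6 units on the arrays of slide 1 and 19.9 to 31.4 on those of slide 2. Dim genes could therefore be detected at lower intensities on the 3-month arrays, and counts of detected arrays are not alike between slides. The mixed KO array was closer to the 9-12 month WT array than any other pair of arrays was to each other, with an SD of 0.31 for their log2 differences against 0.70 between both WT arrays and 1.21 between the undetermined KO and the 3-month WT array. The Y-linked genes Ddx3y and Eif2s3y read -5.74 and -5.90 on MDS/MPN 2 and -4.24 and -0.79 on the undetermined array, whereas the other 8 arrays lay between -0.98 and 1.29 for Ddx3y and between 0.71 and 2.24 for Eif2s3y. The labels give no sex. The LSK markers Kit, Ly6a and Cd34 were well above background on all 10 arrays, with levels of 3.86 to 5.23, 4.10 to 5.68 and 7.15 to 8.60 on KO arrays. Relative to the WT mean, the median of 5 gate markers (these with Flt3 and Ptprc) was -0.81 on MDS/MPN 1, -0.61 on MDS/MPN 3 and -0.89 on the undetermined array, and -0.15 to 0.05 on the other KO arrays, with WT at -0.01 and 0.01.

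Ezh2 RNA itself lay within the range of the WT arrays or around it. The KO levels were 2.13 at the lowest, 2.46 at the median and 3.35 at the highest, against 2.63 on the 9-12 month and 2.14 on the 3-month WT array. The groups overlapped, and the difference was 0.13 ± 0.38 (limma adjusted p = 0.997). The place of the probe relative to the floxed exons is not known here, so this value checks nothing about the deletion. Of 13 PRC2 genes 12 entered, and 1 of the 12 had all KO arrays on one side, against 4.36% of named genes above and 2.93% below. That gene was Epop, a PRC2-associated protein that also binds elongin. Its KO levels were 3.56, 3.69 and 4.33 (lowest, median and highest), and the WT levels were 3.10 and 2.08 at 9-12 and 3 months. Every KO array was above both, by a difference of 1.06 ± 0.34.

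The other PRC2 subunits overlapped. The core subunits Eed and Suz12 differed by 0.18 ± 0.31 and 0.11 ± 0.50, and the histone-binding subunits Rbbp4 and Rbbp7 by 0.28 ± 0.43 and 0.08 ± 0.28. Ezh1 was at -0.35 ± 0.38, Jarid2 at 0.06 ± 0.37 and Aebp2 at 0.40 ± 0.46. Among the Polycomb-like proteins, which help PRC2 find its targets, Phf19 was at 0.51 ± 0.30, Mtf2 at -0.44 ± 0.37 and Phf1 at -1.36 ± 0.94. The values of Ezh2, Eed, Suz12, Rbbp4, Rbbp7 and Jarid2 changed sign under other scalings, fits or left-out arrays. The median of the list was 0.12, against 0.10 over all named genes, and fell to -0.01 when arrays were centred on the probes detected everywhere. For the PRC1 subunits, some of which bind the PRC2 mark, 0 of 18 were on one side in either direction. Their median of 0.02 also turned negative under that centring (-0.10).

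Across all features limma called 0 higher and 0 lower in KO at an adjusted p of 0.05, with 424 higher (1.9%) and 814 lower (3.64%) at an unadjusted p under 0.05. The lowest adjusted p was 0.0712, for Tstd3 and Lgr5. Without the 3-month WT or the 3-month KO array the fit rested on slide 2 alone, with 1 WT array, and called 1 feature higher and 176 or 153 lower. Genes on one side were therefore separated in order but mostly by little. The gap between the nearest KO and the nearest WT array had a median of 0.13 for the features above and 0.14 for those below, and it reached 1 log2 unit, a doubling, in 24 and 13 features. Just inside the boundary, 175 and 130 features had gaps under 0.05, and just outside it 190 and 185 features overlapped by under 0.05. Of the features above, 591 were well above background on all 10 arrays (4.13% of such features) and 65 on no WT array. Of those below, 264 were so on all 10 (1.85%) and 90 on no KO array, and the latter had to be brighter in WT to enter at all, as the 65 had to be brighter in KO.

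In the labels of the scanner files, the KO array nearest to WT was most often the mixed one. That was so in 227 of the 709 features above and 140 of the 611 below. The farthest was most often the undetermined array among the features above (294) and MDS/MPN 2 among those below (158). Nearest to the KO arrays on the WT side was the 9-12 month array in 589 and 463 features. Without the mixed array 905 features were above and 759 below, and without MDS/MPN 2 these counts were 966 and 752. The counts rested on both WT arrays: without the 9-12 month WT array 3658 features were above and 3874 below, and without the 3-month WT array 1207 and 1717. Without the 3-month KO array 932 were above and 1044 below.

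The split between directions moved with the scaling. Of the one-sided features 53.7% were above with the 75th percentile, 34.9% (504 above and 941 below) when centred on the probes well above background on all arrays, and 43.5% (626 and 813) after quantile normalization. The median difference over all features was 0.03, -0.09 and -0.04 in these settings, so directions of small differences are relative to that shift. Under all 4 scalings, which include normexp, a model-based background correction, with quantile normalization, 377 features stayed above and 433 below, of which 308 and 286 were named genes. The genes named below were on the same side under all 4 unless stated.

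**Figure D1:**
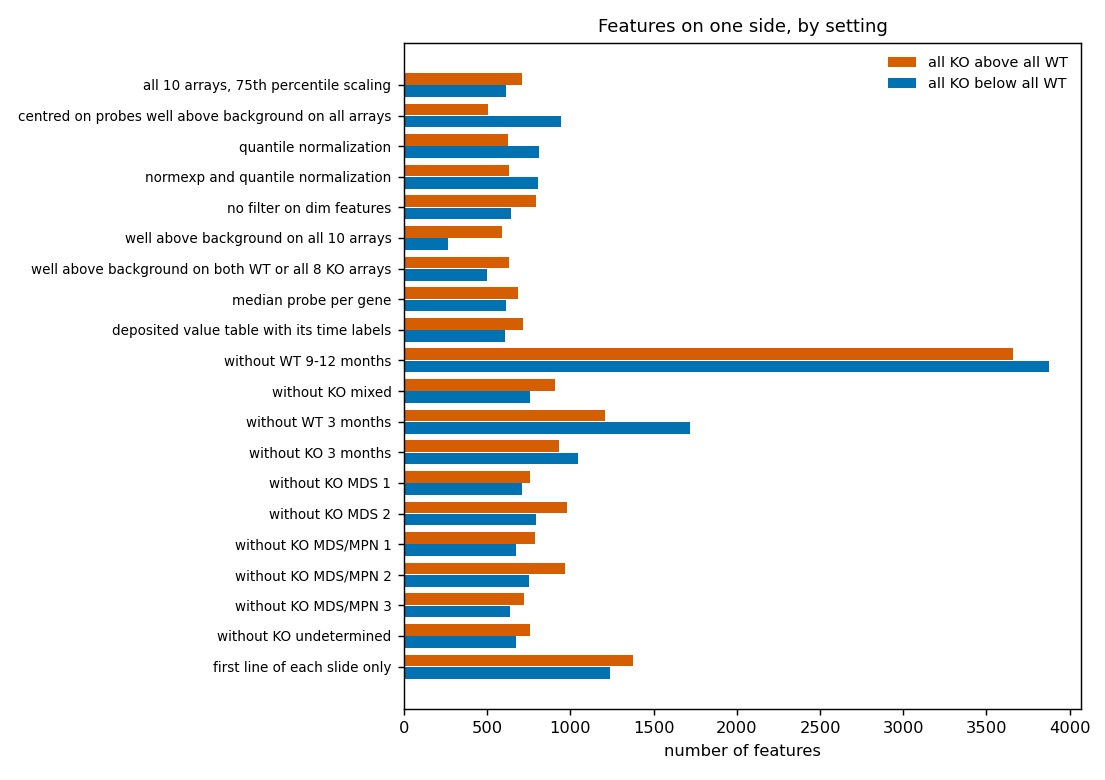
Number of features (horizontal axis) whose KO arrays all lay above (orange) or below (blue) all WT arrays, for all 10 arrays and for other scalings, filters, fits to fewer arrays and the deposited value table (vertical axis). With all arrays the bars reach 709 and 611, and they are longest without the 9-12 month WT array, at 3658 and 3874.

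Among genes well above background on all 10 arrays, 482 of 9703 named genes (4.97%) were above and 203 (2.09%) below. The widest gap upward was that of Sapcd1, at 1.65. Its KO levels were -0.47 at the lowest, 1.21 at the median and 4.76 at the highest, against -2.12 on the 9-12 month and -2.50 on the 3-month WT array, a difference of 3.87 ± 1.23. The mixed array was its lowest KO array, and MDS/MPN 1 and 3 were its highest. Prss16, a serine protease of the thymus, read -0.07, 1.78 and 2.96 on KO against -1.42 and -1.65 on WT (3.25 ± 0.75). Car1, a carbonic anhydrase of red cell precursors, read 1.64, 4.05 and 6.57 against 0.33 and -1.48 (4.51 ± 1.38), and its second probe lay on the same side. In both the mixed array was again the nearest to WT.

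Nat8l, which makes N-acetylaspartate, read 0.24, 0.51 and 1.03 on KO against -0.93 and -2.24 on WT (1.91 ± 0.33), with all 8 KO arrays within 1 log2 unit of each other. Evl, an Ena/VASP protein that promotes actin filament growth, read 3.65, 4.16 and 4.68 against 2.83 and 2.78, so that the lowest KO array stood 0.82 above WT (1.35 ± 0.33). Bdh1, which interconverts the ketone bodies acetoacetate and hydroxybutyrate, read 1.81, 2.58 and 3.63 against 0.20 and 0.90 (2.26 ± 0.58). Of its 2 other probes, the one detected on all arrays was on the same side and the other, detected on 2 arrays, overlapped. Crip2, a LIM-domain protein, read 0.64, 1.92 and 5.36 against -0.37 and -0.63, with the undetermined array highest.

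The rest of this upward set were Glcci1 (1.76 ± 0.42), Ticrr, a replication initiation factor (1.41 ± 0.44), Slc12a4, a potassium-chloride cotransporter (1.68 ± 0.57), and Chst1, a sulfotransferase (1.85 ± 0.95). Chst1 was highest on MDS 1, at 3.28, where the KO median was -0.30.

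The widest downward gap in this set was 0.82. Esam, an adhesion molecule of endothelium and blood stem cells, read -1.34, 0.90 and 1.78 on KO against 2.60 on the 9-12 month and 3.73 on the 3-month WT array, a difference of -2.33 ± 0.79. Tead2, a transcription factor of the Hippo pathway, read -1.38, -0.78 and -0.44 against 0.34 and 1.68 (-1.63 ± 0.37), and its second probe was also below on all KO arrays. Foxd2, a forkhead transcription factor, read -0.27, 0.30 and 0.85 against 1.51 and 1.87 (-1.35 ± 0.37). All 8 KO arrays of each lay under the lower WT array, which was the 9-12 month one in these 3 genes.

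Aldoc, the aldolase C of glycolysis, read 0.71, 1.90 and 3.04 against 3.66 and 4.47 (-2.08 ± 0.62). Naprt, an enzyme of NAD synthesis, read 1.93, 2.74 and 3.16 against 3.68 and 3.90 (-1.10 ± 0.38). The unnamed-function gene G630025P09Rik read -1.04, -0.70 and -0.15 against 0.55 and 0.63 (-1.33 ± 0.33), with both WT arrays close together. The others were Jsrp1 (-1.19 ± 0.34), Nsg1 (-1.90 ± 0.55), Pcp4l1 (-1.32 ± 0.62), the adaptor Stap1 (-0.91 ± 0.28, its second probe on the same side), and Lonrf3 (-0.91 ± 0.30) and Prrg2 (-0.74 ± 0.28), whose second probes overlapped.

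**Figure D2:**
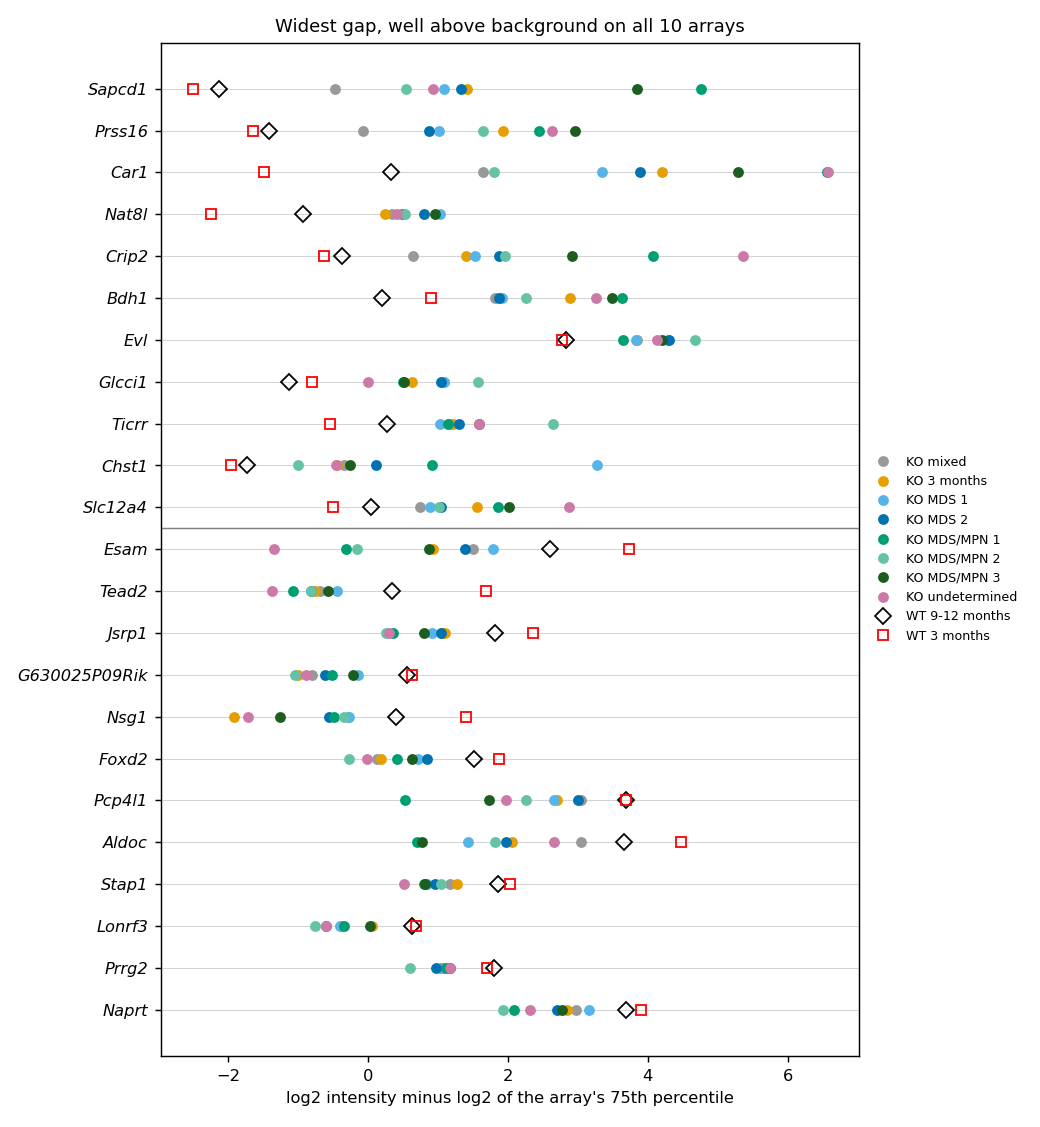
Level on each array (horizontal axis, log2 intensity minus log2 of the array's 75th percentile) of 11 genes with the widest gaps above and 12 with the widest gaps below both WT arrays, among genes well above background on all 10 arrays (vertical axis). Filled circles are KO arrays and open symbols the WT arrays: for Sapcd1 the KO arrays reach from -0.47 to 4.76 while the WT arrays sit at -2.12 and -2.50, and for Esam the KO arrays stay under 1.78 with the WT arrays at 2.60 and 3.73.

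The genes with the smallest unadjusted p were a partly different set, and several were dim. Tstd3, a rhodanese-domain protein, read -0.19, 0.20 and 0.77 on KO against -2.60 and -2.59 on WT, a gap of 2.39 and a difference of 2.84 ± 0.34 (limma adjusted p = 0.0712). Its 2 WT arrays were nearly equal and it was well above background on 1 of them. Septin10, a cytoskeletal GTPase, read -1.43, -0.23 and 1.15 against -2.51 and -2.55, likewise with 1 WT array detected (2.64 ± 0.46). Rnf157, a ubiquitin ligase, read 0.07, 0.42 and 0.89 against -0.57 and -2.24 (1.54 ± 0.37).

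Of the upward genes by p, 6 were not well above background on either WT array, so that their folds are lower bounds. They were set against the lowest detected signal of each WT array. Plcd3, a phospholipase C, was detected on 8 KO arrays and was at least 7.55-fold higher. Arhgap22, a GTPase-activating protein for Rac, was at least 2.72-fold higher with 7 KO arrays detected, and Zfp105, a zinc finger protein, at least 2.36-fold with 6. Klrd1, the CD94 receptor of natural killer cells, was at least 2.31-fold higher with 6 KO arrays detected, and Fancg, of the Fanconi anaemia core complex, at least 1.50-fold with 4. Cysltr1, a leukotriene receptor, was at least 1.09-fold higher with 4, and its groups overlapped after normexp.

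Downward by p, Lgr5, the R-spondin receptor best known as a marker of intestinal stem cells, read -5.24, -4.45 and -3.64 on KO against -0.52 on the 9-12 month and -2.59 on the 3-month WT array. It was detected on both WT arrays and on 0 of 8 KO arrays, which makes it at least 2-fold lower in KO (measured difference -3.40 ± 0.40, limma adjusted p = 0.0712). Serpina9, a serpin of germinal centre B cells, showed the same detection pattern and was at least 2.51-fold lower. Lrmda, a leucine-rich repeat protein, had the widest downward gap of these genes, 2.41. Its KO levels were -3.98, -1.90 and -1.26, with 5 arrays detected, against 1.91 and 1.16 on WT (-3.71 ± 0.68).

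Hoxb2, a homeobox gene of the Hoxb cluster, read -2.56, -1.79 and -1.13 on KO against 0.23 and 1.03 on WT, a gap of 1.36 (-2.13 ± 0.44, 6 KO arrays detected). Tgfb3, a ligand of the TGF-beta family, read -3.28, -2.78 and -2.26 against -1.65 and 0.18 (-1.69 ± 0.40, 2 KO arrays detected). Larp6, an RNA-binding protein of collagen messages, was at -2.30 ± 0.50 with 2 KO arrays detected, and the zinc finger gene Zfp597 at -1.99 ± 0.45 with 5. 1700029J07Rik was at -2.15 ± 0.34 with 3 KO arrays detected and Dbil5 at -1.24 ± 0.29 with 7. Zfp503 and Loxl3, a lysyl oxidase, were detected on 1 WT array and no KO array, at least 1.23-fold and 1.24-fold lower, and the second probe of Zfp503 overlapped. Lgr5, Serpina9, Tgfb3, Larp6, 1700029J07Rik, Zfp503 and Loxl3 passed the filter through WT alone, which favours the lower side.

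**Figure D3:**
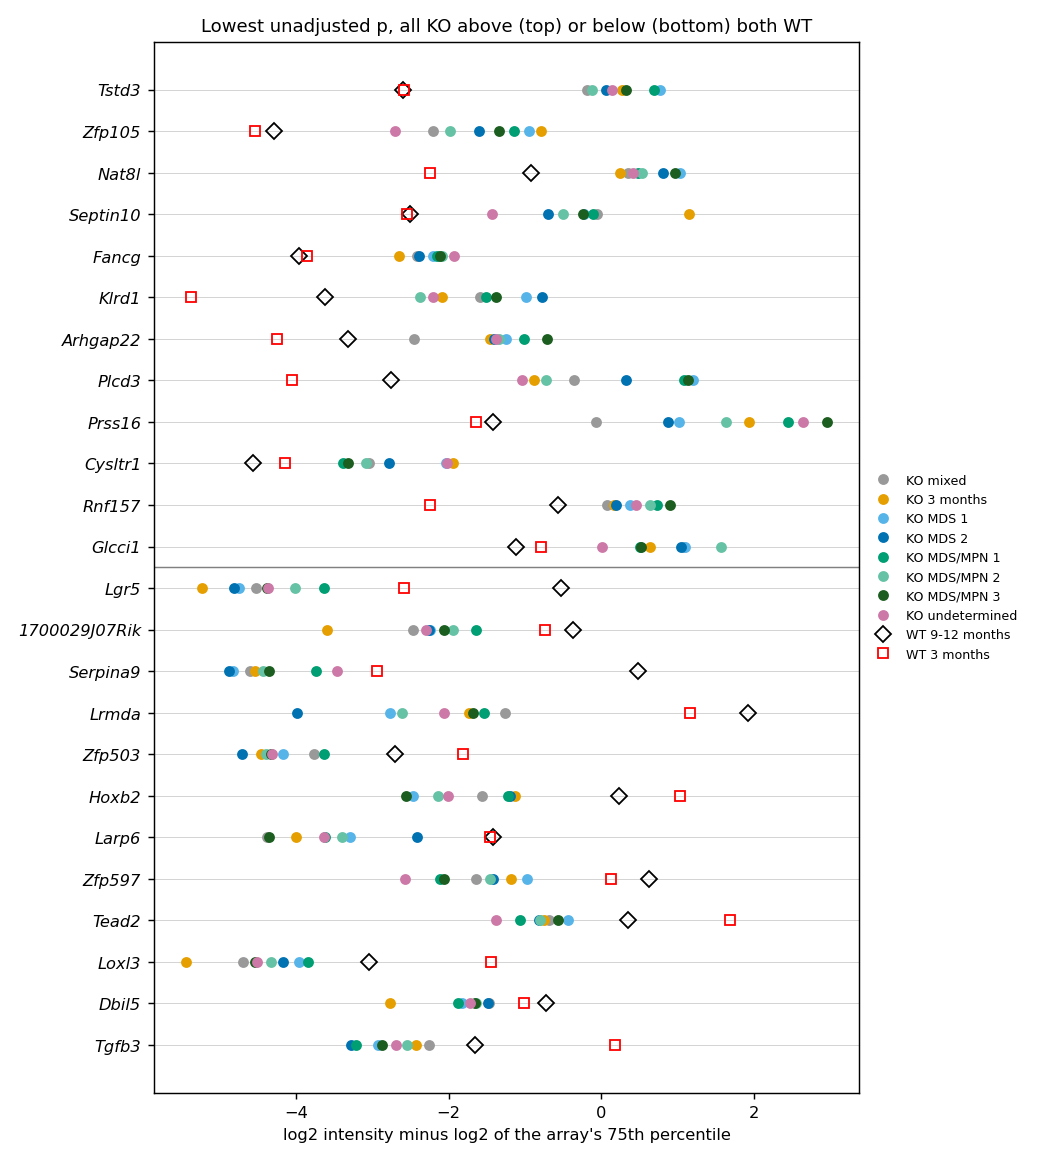
Level on each array (horizontal axis, log2 intensity minus log2 of the array's 75th percentile) of the 12 genes above and the 12 below both WT arrays with the lowest unadjusted p (vertical axis), KO as filled circles and WT as open symbols. Tstd3 shows both WT arrays near -2.6 with the KO arrays from -0.19 to 0.77, and Lgr5 shows the KO arrays from -5.24 to -3.64 below WT arrays at -0.52 and -2.59.

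At the median, promoters of the genes above held more CpG dinucleotides than those of the genes below, a feature that took no part in choosing the genes. Counts were made in the 250 bases before the first listed start in the RefSeq promoter table (GRCm38.p6) for genes well above background on all 10 arrays, of which 7870 of 9703 (81.1%) had a promoter there. The median was 16 CpG (quartiles 9 and 23) over all of these genes, 18 (12 and 26) over the 391 matched genes above and 10 (5 and 17.5) over the 167 matched genes below. A promoter with 20 or more CpG was found for 35.0% of all, 44.0% of those above and 19.2% of those below, and for 17.7% of all 27025 genes in the table. After quantile normalization the medians were 19 above and 12 below, and without the mixed array 18 and 11. These values are a description with no test, and the part of signal strength in them was not tested. The promoters printed are those of the 3 genes per direction with the widest gaps among the named genes that had a promoter in that table. They run 5′ to 3′ on the gene's strand, with each CG in capitals.
Crip2 (all KO above, GRCm38.p6 chr12:113139986-113140235, plus strand): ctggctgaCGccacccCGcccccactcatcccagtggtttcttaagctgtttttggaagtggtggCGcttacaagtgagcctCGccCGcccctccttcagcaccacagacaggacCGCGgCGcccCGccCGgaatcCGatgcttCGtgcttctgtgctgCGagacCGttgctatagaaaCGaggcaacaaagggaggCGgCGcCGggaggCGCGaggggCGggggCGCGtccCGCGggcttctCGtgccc
Bdh1 (all KO above, GRCm38.p6 chr16:31422047-31422296, plus strand): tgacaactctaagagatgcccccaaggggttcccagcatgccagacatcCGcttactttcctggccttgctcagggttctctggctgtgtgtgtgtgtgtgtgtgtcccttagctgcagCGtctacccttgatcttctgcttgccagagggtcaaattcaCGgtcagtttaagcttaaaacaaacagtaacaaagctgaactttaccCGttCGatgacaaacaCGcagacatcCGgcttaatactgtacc
Evl (all KO above, GRCm38.p6 chr12:108554470-108554719, plus strand): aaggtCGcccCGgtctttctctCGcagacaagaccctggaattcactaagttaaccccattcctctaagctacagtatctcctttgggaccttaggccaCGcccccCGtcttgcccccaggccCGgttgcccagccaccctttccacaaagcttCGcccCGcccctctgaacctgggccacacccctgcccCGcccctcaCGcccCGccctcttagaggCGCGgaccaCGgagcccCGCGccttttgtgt
Tead2 (all KO below, GRCm38.p6 chr7:45215542-45215791, plus strand): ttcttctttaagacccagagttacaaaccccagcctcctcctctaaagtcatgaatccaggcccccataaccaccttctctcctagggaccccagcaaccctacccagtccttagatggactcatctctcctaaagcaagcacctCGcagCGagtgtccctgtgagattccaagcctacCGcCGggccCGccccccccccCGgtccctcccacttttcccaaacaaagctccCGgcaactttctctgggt
G630025P09Rik (all KO below, GRCm38.p6 chr11:69803419-69803668, plus strand): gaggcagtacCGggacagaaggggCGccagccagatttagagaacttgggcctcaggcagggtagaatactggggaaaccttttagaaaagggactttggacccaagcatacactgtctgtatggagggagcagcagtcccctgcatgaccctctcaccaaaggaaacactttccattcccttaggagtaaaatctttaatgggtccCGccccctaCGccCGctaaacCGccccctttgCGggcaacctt
Foxd2 (all KO below, GRCm38.p6 chr4:114908899-114909148, minus strand): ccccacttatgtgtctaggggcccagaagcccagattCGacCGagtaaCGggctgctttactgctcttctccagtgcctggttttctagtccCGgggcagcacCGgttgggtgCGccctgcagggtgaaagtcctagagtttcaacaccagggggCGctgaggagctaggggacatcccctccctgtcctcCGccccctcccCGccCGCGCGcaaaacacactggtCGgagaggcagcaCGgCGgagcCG

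Crip2 carried 26 CpG and Evl 16 in these windows, with GC contents of 66.8% and 64.0%, whereas Bdh1, also above, carried 7. Among the genes below, Tead2 and G630025P09Rik carried 7 each and Foxd2 16, so that the directions overlap gene by gene.

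**Figure D4:**
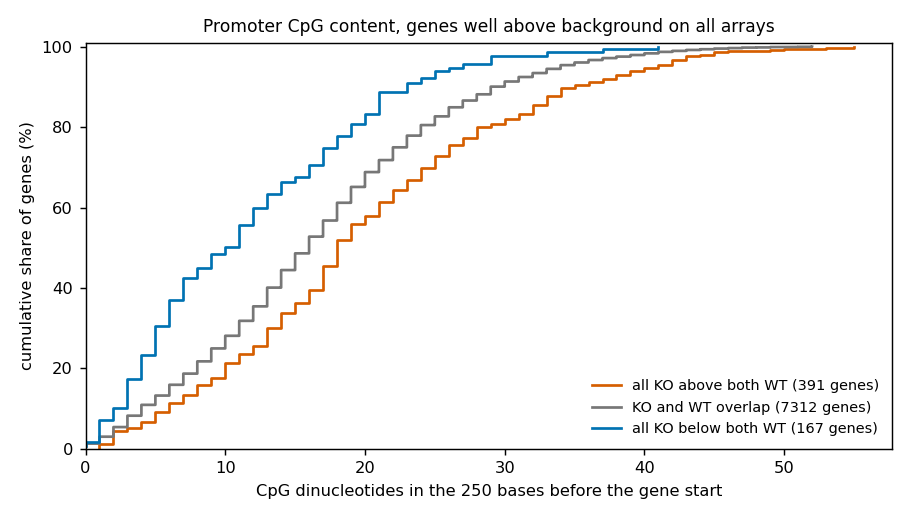
Cumulative share of genes (vertical axis, percent) by the number of CpG dinucleotides in the 250 bases before the gene start (horizontal axis), for genes well above background on all 10 arrays whose KO arrays all lay above both WT (orange, 391 genes), all below (blue, 167 genes) or overlapped (grey). The blue line runs left of the grey one, with a median of 10, and the orange line right of it, with a median of 18.

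Grouped by function, the erythroid and mast cell lists held the most members above and the stem cell list the most below. Members that passed the filter through 1 genotype alone contribute to these counts by the filter itself. In these bulk samples fewer cells of a type and less RNA per cell cannot be told apart. Each list is read against the shares of named genes on one side, 4.36% above and 2.93% below, and their median of 0.10. Of all 12881 named genes 7542 had a positive difference. In no list did limma call a member.

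Erythroid genes had 6 of 28 members above and 0 below, a median of 1.80 (1.15 with normexp), and 23 positive differences. Of the 24 members detected on a WT array 5 were above, and Kel entered through KO alone. Besides Car1 these were Hba-a1 and Hba-a2, which encode alpha-globin, the transferrin receptor Tfrc, the erythropoietin receptor Epor and Kel, a red cell surface protease. Hba-a2 read 1.06, 6.41 and 8.09 on KO against 0.63 and 0.56 on WT (4.20 ± 1.84), so that the lowest KO array stood only 0.43 above WT while the median stood far above. Hba-a1 was at 4.19 ± 1.81, and probes for these near-identical genes may read each other. Epor was at 2.01 ± 1.24 with a gap of 0.07, Tfrc at 1.98 ± 0.72, and Kel, not detected on WT, was at least 3.30-fold higher. The transcription factors Gata1 (1.98 ± 1.21) and Klf1 (3.56 ± 1.52) overlapped. The median of the list per array was 0.04 on both the mixed and the MDS/MPN 2 array, below the 9-12 month WT array at 0.09, and 1.06 to 3.99 on the other 6. It was highest on MDS/MPN 1 (3.02), MDS/MPN 3 (2.41) and the undetermined array (3.99), the arrays on which the gate markers and the stem cell list were lowest, and the part of this in the result was not tested. The summed linear signal of the list was 246 to 1706 on KO against 286 and 546 on WT.

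Mast cell and basophil genes had 3 of 15 members above and 1 below, with a median of 1.65. Of the 13 members detected on a WT array 1 was above, and Cma1 and Mcpt4 entered through KO alone, which favours that side. The chymase Cma1 was undetected on WT and at least 6.72-fold higher with 7 KO arrays detected, and the protease Mcpt4 at least 4.91-fold, also with 7. Il1rl1, the interleukin 33 receptor, read -2.07, 1.53 and 3.35 on KO against -2.77 and -3.13 on WT (4.02 ± 1.31), and its 2 other probes overlapped. Mrgprb1, a mast cell receptor, was the member below, with a gap of 0.07. It was detected on 1 KO array and entered through WT alone. The list median lay above both WT arrays on 8 of 8 KO arrays, from 0.51 on the mixed array, against 0.43 at 9-12 months, to 2.87. The summed signal was higher than on both WT arrays in 7 of 8, and Kit, the stem cell factor receptor, was at -0.78 ± 0.45.

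Neutrophil granule genes had a median of 1.47 (0.98 with normexp) with 1 of 20 members above and 1 below. Cebpe, a regulator of granule genes, read 1.27, 3.39 and 5.27 on KO against 0.68 and 0.17 (2.72 ± 0.96). Padi4, a histone-citrullinating enzyme, was the one below (-1.20 ± 0.72), and it overlapped after quantile normalization and normexp. Monocyte, macrophage and dendritic markers had 1 of 19 above, Mpeg1, a pore-forming protein of macrophages, at 1.60 ± 0.51 with both probes on that side, and a median of 1.55 (0.67 with normexp). The summed signal of these markers was 332 to 547 on KO against 340 and 433 on WT, above both in 2 of 8 arrays and below both in 1. B cell markers had a median of 1.20 (0.58 with normexp) with 0 of 13 on one side in either direction, and 6 of the 13 were undetected on WT.

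Among natural killer cell genes 2 of 9 were above and 1 below. Both above entered through KO alone, and of the 6 members detected on a WT array 0 were above. Granzyme B (Gzmb) was undetected on WT and at least 11.9-fold higher on 8 detected KO arrays, and Klrd1 is given above. Klrb1c, the NK1.1 antigen, went the other way (-2.96 ± 0.89), with 4 KO arrays detected and an overlapping second probe. Of 9 T cell markers 1 was above, Cd5, a surface receptor (1.05 ± 0.51), which overlapped after normexp. Megakaryocyte, eosinophil and stromal lists had 0 members on one side, with medians of -0.15, -0.33 and -0.01.

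Stem cell genes had 5 of 30 members below and 0 above, a median of -1.18 and 27 of 30 differences negative. Besides Esam these were Clec1a, Tek, Meis1 and Itga6. Meis1, a homeobox partner of Hox proteins, read 3.15, 4.12 and 4.86 on KO against 5.07 and 5.62 on WT (-1.21 ± 0.52), with KO and WT 0.21 apart at the nearest. Itga6, an integrin, was 3.96, 4.27 and 4.60 against 4.79 and 5.81 (-0.80 ± 0.28). Clec1a, a C-type lectin, was at -3.50 ± 1.02 with 2 KO arrays detected. Tek, the angiopoietin receptor, was at -1.84 ± 0.55 with 1 KO and 1 WT array detected, and overlapped after normexp. Clec1a and Tek passed the filter through WT alone, which favours the lower side. Procr (-2.54 ± 1.03), Hlf (-2.09 ± 1.14) and Mecom (-1.88 ± 0.94), known regulators or markers of the most primitive stem cells, overlapped. The list median was -0.47 to -2.44 on the KO arrays, and the highest of these, MDS 1, was level to 2 decimals with the 9-12 month WT array at -0.47. The summed signal lay below both WT arrays on 7 of 8.

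Of 14 Hoxa and Hoxb genes 1, Hoxb2, was below and 0 above, with a median of -1.37 that shrank to -0.41 with normexp. The list median was lower on all 8 KO arrays, -0.68 to -2.27, than on WT, at -0.63 and 0.63. Hoxb6, Hoxb7, Hoxb8 and Hoxb9 were detected on 1 WT array and no KO array. They entered through WT alone, which favours low KO values in the list median, and no median without them was computed. Hoxa9 (-0.41 ± 0.39) and Hoxb4 (0.04 ± 0.29), detected throughout, overlapped.

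Among myeloid oncogenes 1 of 18 was above and 3 below. Myc, a growth regulator, read 3.44, 4.02 and 4.63 on KO against 3.31 and 2.26 (0.97 ± 0.38), with a gap of 0.12. Below were Meis1, Lmo2, a scaffold of stem cell transcription complexes (-0.60 ± 0.28, gap 0.09), and Evi2a (-0.44 ± 0.38, gap 0.05).

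Cell cycle lists had positive medians with few genes separated. DNA replication genes had 2 of 28 above, 0 below, and 27 positive differences with a median of 0.56 (0.32 with normexp). Those above were Ccne1, the cyclin of S phase entry, which read 2.95, 3.84 and 6.16 on KO against 2.61 and 1.05 (2.08 ± 0.86, second probe overlapping), and Cdt1, a licensing factor (1.01 ± 0.47, gap 0.06). Mitosis genes had 24 of 24 positive differences, a median of 0.62 (0.32 with normexp) and 0 on one side. Of 8 CDK inhibitors 0 were on one side, and Cdkn2a, a classic PRC2 target that encodes p16 and p19, was at -0.17 ± 1.28 with 2 KO arrays detected. The medians of the replication and mitosis lists were 0.32 and 0.46 after quantile normalization. Relative to the WT mean, the mitosis list was at 0.48 on the 9-12 month and -0.48 on the 3-month WT array. MDS 1 (0.42) and MDS 2 (0.16) lay between these, and 6 KO arrays lay above both. The replication list was at 0.32 and -0.32 on the same WT arrays. MDS 2 (-0.10) and MDS/MPN 2 (0.18) lay between them, and 6 KO arrays above.

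Of 23 p53 target genes 2 were above and 0 below. Zmat3, an RNA-binding protein, read -1.31, -0.44 and 0.22 on KO against -1.98 and -2.96 (1.60 ± 0.40), and Phlda3, an Akt inhibitor, 1.55, 2.45 and 3.02 against 1.05 and 0.37 (1.53 ± 0.45). The gaps were 0.67 and 0.51. The inhibitor Cdkn1a, also a p53 target, overlapped at 0.24 ± 0.52.

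Few genes of other chromatin marks were on one side. Of 15 H3K27 demethylases and trithorax genes 1 was above, the methyltransferase Kmt2b (0.77 ± 0.44, gap 0.12), while the demethylases Kdm6a (-0.45 ± 0.39) and Kdm6b (0.20 ± 0.93) overlapped. Of 11 genes of DNA methylation and hydroxymethylation 1 was above, the methyl-CpG-binding protein Mbd2 (0.75 ± 0.35, second probe overlapping). The median of that list was above both WT arrays on 8 of 8 KO arrays, from 0.22 to 0.95 against 0.09 and -0.09. On MDS/MPN 3 this 0.22 was no higher than the shift of the array, 0.23. The list was above the shift on the other KO arrays, by least on MDS/MPN 1 (0.30 against 0.21) and the undetermined array (0.46 against 0.35). Dnmt1 was at 0.60 ± 0.39 and Tet2 at 0.66 ± 0.41. Of 54 developmental transcription factors, a group that PRC2 silences in many tissues, 8 entered and 0 were on one side. Of 20 genes often mutated in human MDS, Bcor was above (0.51 ± 0.33, gap 0.04), and it overlapped under each of the 3 other scalings.

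**Figure D5:**
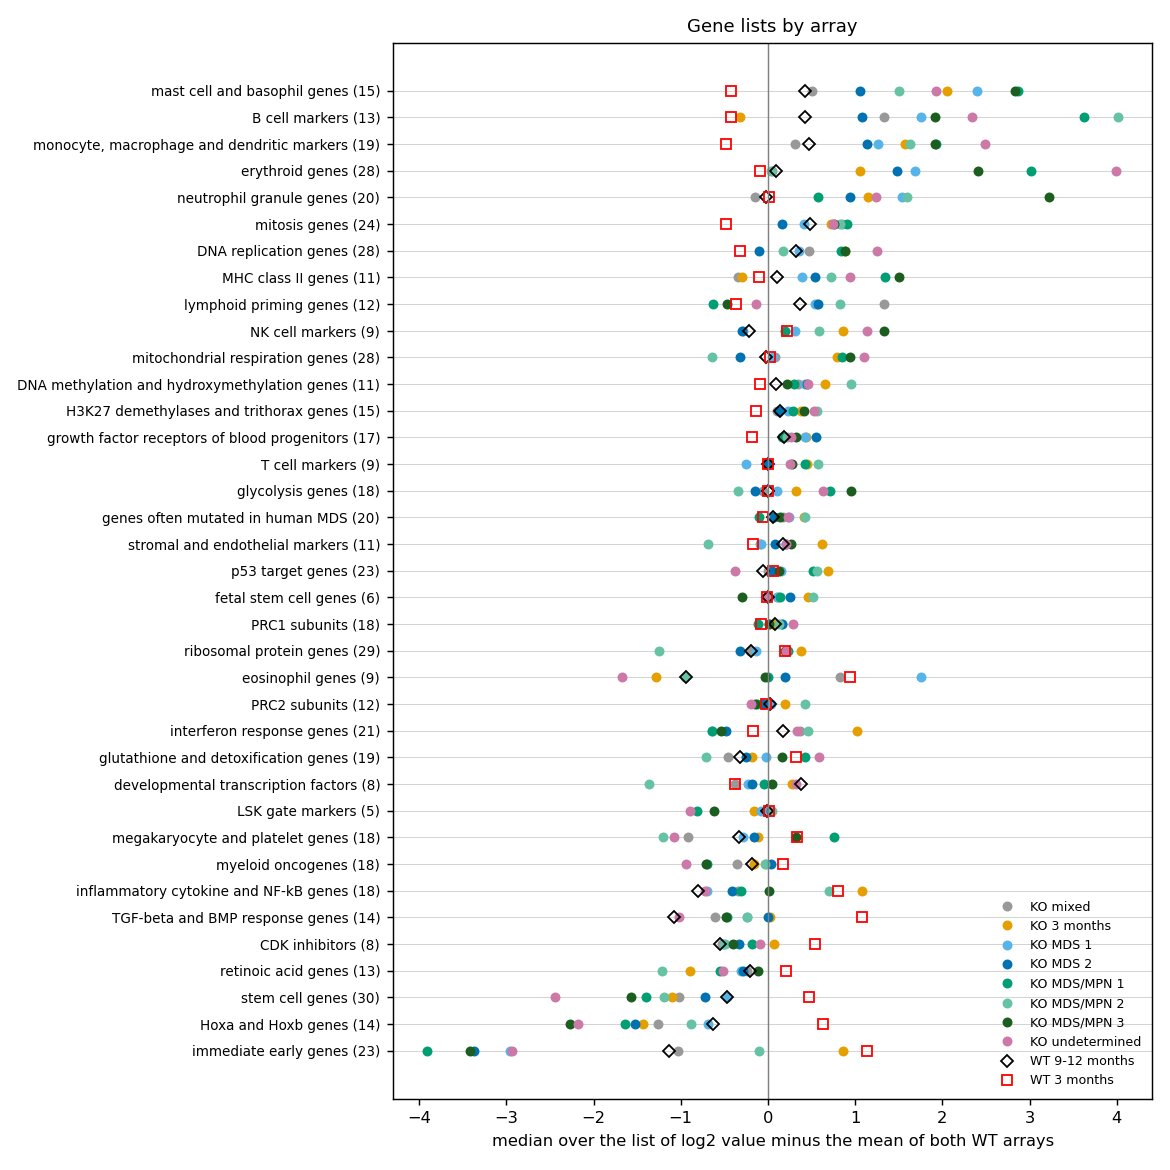
Median over each gene list (vertical axis, number of entered genes in brackets) of the level minus the mean of both WT arrays (horizontal axis, log2), for each KO array (filled circles) and both WT arrays (open symbols), ordered by the KO median. The mast cell list lies right of both WT arrays on all KO arrays, from 0.51 to 2.87, and the Hoxa and Hoxb list left of both, from -0.68 to -2.27. Both lists hold members that entered through a single genotype, which favours these sides.

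Growth factor receptors of blood progenitors had 2 of 17 above, Il1rl1 and Epor, and 1 below, Tek, all given above. Remaining lists gave single genes or none. Of 6 fetal stem cell genes the chromatin protein Hmga1 was above (0.93 ± 0.47, gap 0.19, 2 other probes overlapping). Of 19 glutathione and detoxification genes the transferase Gstm2 was below (-3.52 ± 1.11). Its WT levels were 0.74 and 4.97 on the 9-12 and 3 month arrays, a spread wider than its gap of 0.35. Of 21 interferon response genes the RNA sensor Ifih1 was below (-0.82 ± 0.37, gap 0.08). Lists with 0 members on one side were inflammatory cytokine and NF-kB genes (0.60), MHC class II (0.17), ribosomal proteins (0.06), retinoic acid (-0.58), TGF-beta and BMP response (-0.18) and lymphoid priming genes (0.24). Immediate early genes also had 0, with a median difference of -0.93 that covers a split: relative to the WT mean the list was at -2.94 to -3.91 on 5 KO arrays, and at -1.04 on the mixed, -0.10 on the MDS/MPN 2 and 0.86 on the 3-month array, within the WT range of -1.14 to 1.14. Mitochondrial respiration genes had 0 too, with a median of 0.51 that was 0.21 after quantile normalization and 0.19 with normexp. All 28 fitted differences were positive, but the list median lay below both WT arrays on MDS 2 (-0.32) and MDS/MPN 2 (-0.65). The direction of the ribosomal protein, lymphoid priming, interferon, T cell, stromal and growth factor receptor lists turned with the scaling.

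The KO effect was also compared between the slides, as the difference on slide 2 minus that on slide 1, which cannot be told apart from time. At an adjusted p of 0.05 limma called 0 of 22365 features, with 1070 at an unadjusted p under 0.05, and 222 after quantile normalization. Since 3 of the 4 combinations of genotype and slide held 1 array, the absence of calls says little. Among the 30 measured genes nearest to Ezh2 in the RefSeq order of genes, 1 was above (Kel) and 1 below (Zfp467). The shares over all named genes were 4.36% and 2.93%. The median difference of the 30 genes was -0.06.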

How the data were processed

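RNA was labelled with Cy3 and read on 10 Agilent arrays of 1 colour, 1 per sample. The deposited scanner files hold an intensity per spot that was background-subtracted and detrended within the array, per the file headers, by Feature Extraction 10.7.1.1; the submitters' processing notes name version 9.1. A deposited table of values gives a ratio, the intensity over its array's 75th percentile, as found by setting its columns against the scanner files. There 4 arrays have exchanged time labels but the same genotypes. Each WT array stands under the label of the other, as do the mixed and the 3-month KO array. Which labels are right is not known. Membership of KO and WT does not depend on them, but every value of these 4 arrays is named here by the scanner files. That table served as an alternative with its own time labels.

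Probes were named through RefSeq accessions and the RefSeq table of GRCm38.p6, while the array annotation is on mm9: 27656 of 55681 probes had 1 symbol. Spots of 1 probe were averaged without outlier spots, the brightest probe stood for its gene, and log2 intensities were taken relative to the 75th percentile. A feature entered when well above background on at least 50% of the arrays of 1 genotype. limma 3.58.1 in R 4.3.3 fitted genotype with slide as a block, Benjamini-Hochberg adjustment and a threshold of 0.05. That fit gives a single KO minus WT difference, common to both slides, which combines the differences within each slide. The 3-month pair of slide 1 weighs more in it than 1 of 8 KO arrays would in a plain mean. For Gstm2, -6.83 on slide 1 and -1.63 on slide 2 gave -3.52. Tested on simulated data of 22356 features, it recovered 47% of changes of 2 log2 units and 89% of 4, with 7 false calls. Folds given as "at least" set the brighter group's mean against the dimmer group's, where dim values were replaced by the lowest detected signal of their array. Precision is limited by the number of arrays.

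Named genes were the PRC2 list, up to 12 genes per direction by p and 12 by gap, and up to 4 members per list by fitted difference. Of those by gap, 1 is not reported here. Tfrc, Itga6 and list members whose groups overlapped were named after their values were seen. The members and the 38 gene lists were chosen with earlier results of these data known. Other scalings, filters, blocks, probe choices and left-out arrays were tried.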

Additional observations from a re-analysis of the deposited data

Results flagged for a closer look

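Values that stood apart from the other KO arrays by Dixon's ratio are given here for the named genes and lists. Of 131 groups of 8 KO values tested, 14 stood apart, and chance gives about 1 in 20 groups. MDS/MPN 2 stood apart for 8 of them: Ezh2 at 3.35 (KO median 2.46), Aebp2 at 1.21 (-0.08), Ticrr at 2.64 (1.26), Prrg2 at 0.60 (1.06), the 75th percentile intensity at 301.7 (110.3), and 3 list medians relative to WT, developmental transcription factors at -1.36 (-0.11), ribosomal protein genes at -1.25 (0.03) and Y-linked genes at -6.62 (-0.83). The 3-month KO array stood apart for Rbbp7 at 7.09 (6.19), 1700029J07Rik at -3.59 (-2.25) and Dbil5 at -2.77 (-1.69). The undetermined array did so for Mtf2 at 2.26 (3.13), the mixed array for Arhgap22 at -2.46 (-1.36) and MDS 1 for Chst1 at 3.28 (-0.30). The KO effect was also tested between slides, with 1 array in 3 of the 4 combinations of genotype and slide. With the 75th percentile scaling limma called 0 features at an adjusted p of 0.05 and 1070 had an unadjusted p under 0.05. After quantile normalization it called 222, of which 5 are members of the gene lists: Hoxb7 (slide 2 minus slide 1, 2.92), Hoxb8 (7.03), Hoxb9 (3.84), Lrat (-5.22) and Pou3f2 (-6.33).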

How the results depend on the processing

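The labels give 1 array per genotype at 3 months and no mouse shared by KO and WT. No paired analysis was possible because the labels carry no replicate numbers shared by the groups. limma called 1 feature higher and 1 lower with no block and with slide as a random block, 1 and 3 when centred on probes well above background on all arrays, 1 and 2 after quantile normalization, and 1 and 3 with the stricter filter (both WT or all 8 KO arrays well above background). The feature higher was Tstd3 in each of these 5 settings, and Lgr5 was among those lower when centred and with the stricter filter. Features below numbered 941 when centred and 264 among those well above background on all 10 arrays, a smaller set of features. With only the 6 arrays of the first line of each slide (both WT and the 3-month, mixed and both MDS KO arrays), 1373 were above and 1235 below, with fewer KO arrays to separate. Leaving out 1 array in turn gave 722 to 3658 features above, 639 to 3874 below, 0 to 1 called higher and 0 to 176 called lower. The comparison between slides called 222 after quantile normalization. PRC2 differences turned negative as follows, and the cause was not tested. When centred, Ezh2 was -0.00027, Suz12 -0.012, Rbbp7 -0.046 and Jarid2 -0.068. After quantile normalization, Ezh2 was -0.0022, Eed -0.036, Rbbp4 -0.025 and Rbbp7 -0.20, and with normexp -0.046, -0.012, -0.030 and -0.22. With no block Eed was -0.049 and Rbbp7 -0.20, and with a random block -0.0077 and -0.15. In the value table Eed was -0.000696, Rbbp7 -0.23 and Jarid2 -0.048. Without the 3-month WT or KO array, Ezh2 was -0.13, Eed -0.14 and Rbbp7 -0.10. Without the 9-12 month WT array Suz12 was -0.0016 and Jarid2 -0.21, and without MDS/MPN 2 -0.012 and -0.020. Leaving out 1 array in turn, Ezh2 lay between -0.13 and 0.57, Eed between -0.14 and 0.75, Suz12 between -0.012 and 0.21, Rbbp7 between -0.10 and 0.40 and Jarid2 between -0.21 and 0.21. Dim probes limit the downward genes, where 90 of 611 features were detected on no KO array, and 216 on both WT arrays but not all KO arrays.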

Other observations

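Genes on one side were spread over all autosomes. By the RefSeq table of GRCm38.p6, the X chromosome had 1.57% of its 446 entered genes above and 4.48% below, against 4.36% and 2.93% of all named genes. On the Y chromosome 0 of 6 entered genes were on one side. How far the low Y-linked levels of MDS/MPN 2 and the undetermined array go with the X-linked values was not tested.

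Runs of 3 neighbouring measured genes above both WT arrays occurred at 2 places, chosen after their values were seen. Over all named genes 562 of 12881 (4.36%) were above, and how many such runs that share alone gives was not tested. At one, Vps37c, an endosomal sorting subunit, was at 0.86 ± 0.35 and overlapped when centred, and the lymphocyte receptors Cd5 and Cd6 were at 1.05 ± 0.51 and 1.84 ± 0.61. Cd6 read 0.40, 1.05 and 2.51 on KO (lowest, median and highest) against -0.12 and -2.14 on WT at 9-12 and 3 months. At the other, Pirb, an inhibitory receptor of myeloid and B cells, was at 0.83 ± 0.42 and its relative Lilra6 at 1.24 ± 0.41, with Gm14548 between them. Probes of these near-identical receptors may read each other.

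Near Ezh2, the zinc finger gene Zfp467 read 0.14, 1.68 and 2.62 on KO against 2.84 and 3.78 on WT (-1.46 ± 0.67), with 2 of its 4 probes below and 2 overlapping. It was named after its values were seen, and was 1 of 30 measured neighbours below, against 2.93% of named genes.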
